A study of Rattus norvegicus with 6 samples.

Results

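The genes followed here are 7 transcription factor genes that mark atrial or ventricular identity in heart muscle: Nr2f1, Nr2f2, Irx3, Irx4, Irx5, Hey2 and Hand1. They were picked by symbol from a table of 17089 rat genes, and all 7 were found. All 7 had a mean of at least 10 normalized counts over the libraries, the minimum that left 11230 genes for testing, and each was also above that minimum in each group taken alone. Cultures of neonatal rat ventricular myocytes, primary cells from the ventricles of Sprague Dawley pups at postnatal day 1 to 3, were given an adenovirus on the day they were isolated. For 3 libraries the virus carried GFP, a fluorescent protein that serves as the control. For the other 3 it carried Tbx18 joined to GFP by an internal ribosome entry site. Tbx18, a T-box protein, acts in the sinus horns of the embryonic heart, and the series compares the resulting pacemaker-like cells with ventricular myocytes. All cultures were kept on fibronectin, in medium with 10% serum for 2 days and 2% from day 3, and RNA was taken 4 days after gene transfer. The groups are called GFP and Tbx18.

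COUP transcription factors, encoded by Nr2f1 and Nr2f2, are orphan nuclear receptors that hold the atrial programme in developing myocytes. In mice, loss of Nr2f2 from atrial muscle shifts it towards a ventricular character, and the gene is also a regulator of venous endothelium. Iroquois homeobox genes lie in a pair of chromosomal clusters, one with Irx1, Irx2 and Irx4 and the other with Irx3, Irx5 and Irx6. Irx4 is restricted to ventricular muscle, where it represses atrial genes, Irx3 acts in the ventricular conduction system, and Irx5 shapes the gradient of repolarizing current across the ventricular wall. Hey2 is a repressor of the basic helix-loop-helix class, switched on by Notch signalling, that keeps atrial genes silent in the compact ventricular wall. Hand1, another basic helix-loop-helix factor, marks the outer curvature of the embryonic left ventricle and works as a dimer with E proteins.

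The 6 libraries held 17074483 to 19800300 gene-assigned reads, and the median SD of log2 values within a group was 0.17 in GFP and 0.10 in Tbx18. Tbx18 itself was read at 268 to 312 normalized counts in GFP and 5937 to 6236 in Tbx18, so every library matched its label. Nothing in the labels ties the 3 libraries of a group to separate isolations of cells. The p-values therefore cover the spread among these libraries alone, and that spread may be technical. Of the genes tested, 46% were called changed by limma at an adjusted p under 0.05, 22.5% higher and 23.5% lower in Tbx18, and for 57.2% the groups did not overlap, 28.6% with Tbx18 above and 28.6% with Tbx18 below. Among the 7 factors 2 were called higher, 4 lower and 1 was not called, and the 6 called were those whose groups did not overlap. Changes of at least 1 on the log2 scale were called for 8.04% of genes higher, Nr2f2 among them, and for 4.22% lower, with Irx3, Irx4, Irx5 and Hand1 among them. The median log2 fold change of all 7 factors was -1.13, against 0.01 for all genes tested. Values below are normalized counts, which are the authors' read counts divided by 1 scaling factor for each library, with means ± SD over 3 libraries. Log2 fold changes are on the scale of log2 of the normalized count plus 1.

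**Figure D1:**
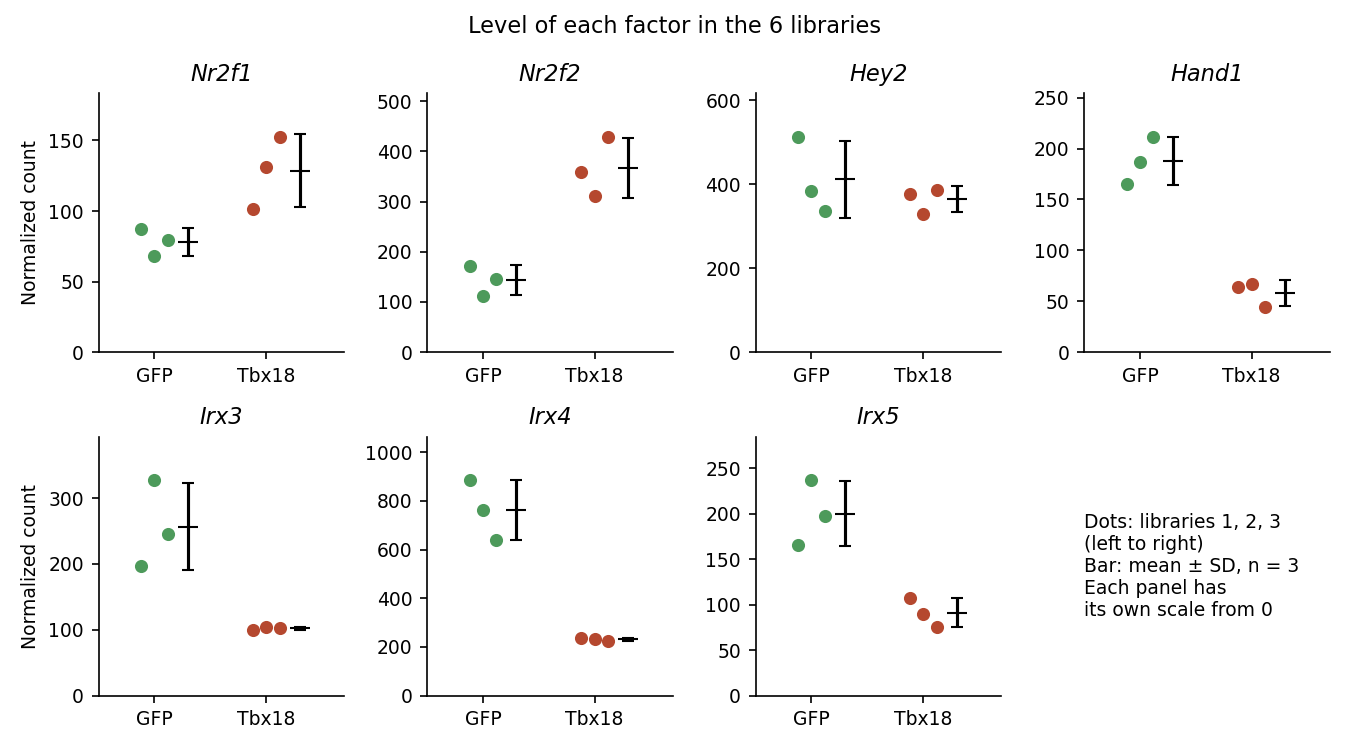
Normalized counts of the 7 factors in each library, with the mean ± SD of 3 libraries beside the dots; each panel has its own linear axis from 0. The Tbx18 dots lie above the GFP dots for Nr2f1 and Nr2f2, below them for Irx3, Irx4, Irx5 and Hand1, and overlap with them for Hey2.

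Both COUP transcription factor genes were higher with Tbx18, Nr2f2 by more than Nr2f1. Nr2f2, the receptor of atrial and venous identity, was at 172, 112 and 146 normalized counts in GFP and at 359, 311 and 429 in Tbx18. The lowest Tbx18 library was thus well above the highest GFP library. From a mean of 144 ± 30.1 it rose to 367 ± 59.2, which is 2.55-fold (log2 scale 1.35 with SE 0.18, limma adjusted p = 0.000309). Nr2f1, its close relative, was at 87.2, 67.9 and 79.4 counts in GFP and 101, 131 and 153 in Tbx18. Here the gap between the groups was narrow, since the first Tbx18 library was close to the first GFP library. Its mean of 78.2 ± 9.71 became 128 ± 25.8, a 1.64-fold rise (log2 scale 0.70 with SE 0.20, limma adjusted p = 0.0158). This call was lost without Tbx18 replicate 2 (limma adjusted p = 0.0572), without Tbx18 replicate 3 (0.0737) and after quantile normalization (0.103), while Nr2f2 was called under every alternative run. The third gene of the family, Nr2f6, which is broadly expressed, was at 1411 ± 144 and 1662 ± 217 counts and was not called (limma adjusted p = 0.122). It was called higher with upper-quartile scaling, quantile normalization and equal recovered reads, with log2 fold changes of 0.33, 0.35 and 0.50. The ratio of Nr2f2 to Nr2f1 within a library was 1.98, 1.65 and 1.84 in GFP and 3.55, 2.38 and 2.81 in Tbx18. This ratio depends on the lengths of both transcripts, so only its change is read. It was higher in all 3 Tbx18 libraries (exact permutation p = 0.1, two-sided, the smallest that 3 against 3 libraries allow, and 0.16 after Benjamini-Hochberg adjustment over 8 such ratios). Nr2f1 and Nr2f2 share closely similar coding sequence, so some reads may have been dropped or assigned to the wrong gene of the pair.

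The 3 Iroquois genes described were all lower with Tbx18, and Irx4 fell furthest. Irx4, the ventricular member, was at 885, 762 and 637 counts in GFP and at 237, 233 and 224 in Tbx18. The GFP libraries were widely spread and the Tbx18 libraries almost equal, with no overlap. With means of 761 ± 124 and 231 ± 6.52, Irx4 fell 3.30-fold (log2 scale -1.70 with SE 0.13, limma adjusted p = 1.52e-05), and ranked 97 among the 2639 genes called lower. Irx3, the conduction system member, was at 197, 327 and 245 counts in GFP and at 100.3, 105 and 103 in Tbx18. The same pattern held, with scattered GFP values and a tight Tbx18 group below them. Means of 256 ± 66.0 and 103 ± 2.09 gave a 2.50-fold fall (log2 scale -1.28 with SE 0.19, limma adjusted p = 0.000451). Irx5, the gene of the repolarization gradient, was at 166, 237 and 198 counts in GFP and at 108, 90.2 and 75.5 in Tbx18. The means were 200.3 ± 35.6 and 91.1 ± 16.1, a 2.20-fold fall (log2 scale -1.13 with SE 0.19, limma adjusted p = 0.00104). GFP replicate 2 had the highest Irx3 and Irx5 of the controls and GFP replicate 1 the lowest. All 3 calls held under each of the 17 alternatives run.

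Of the Iroquois genes outside this set, Irx2, the neighbour of Irx4, also fell, with means of 123 ± 15.1 and 73.8 ± 8.28 (log2 scale -0.73, limma adjusted p = 0.00672). Irx1, the other gene of that cluster, was at 59.9 ± 5.08 and 42.3 ± 7.97 counts and was not called (-0.51, limma adjusted p = 0.0795), although its groups did not overlap. It was called lower after quantile normalization (-0.96) and by limma with no trend (limma adjusted p = 0.0330). Irx6 had 0 reads in all 6 libraries, which allows up to 3 reads in each, or 2.63 to 3.70 normalized counts, counting error only. Within a library the ratio of Irx5 to Irx3 was 0.843, 0.725 and 0.808 in GFP and 1.07, 0.863 and 0.735 in Tbx18. These genes of one cluster were therefore lower by amounts whose difference, 0.16 on the log2 scale, was within the spread of the libraries (exact permutation p = 0.4, adjusted 0.457). The ratio of Irx5 to Irx4 was 0.188, 0.311 and 0.310 in GFP and 0.455, 0.388 and 0.337 in Tbx18, higher in every Tbx18 library (exact permutation p = 0.1, adjusted 0.16). The ratio of Irx3 to Irx4 overlapped between the groups, at 0.222 to 0.429 in GFP and 0.424 to 0.459 in Tbx18 (exact permutation p = 0.2, adjusted 0.267).

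**Figure D2:**
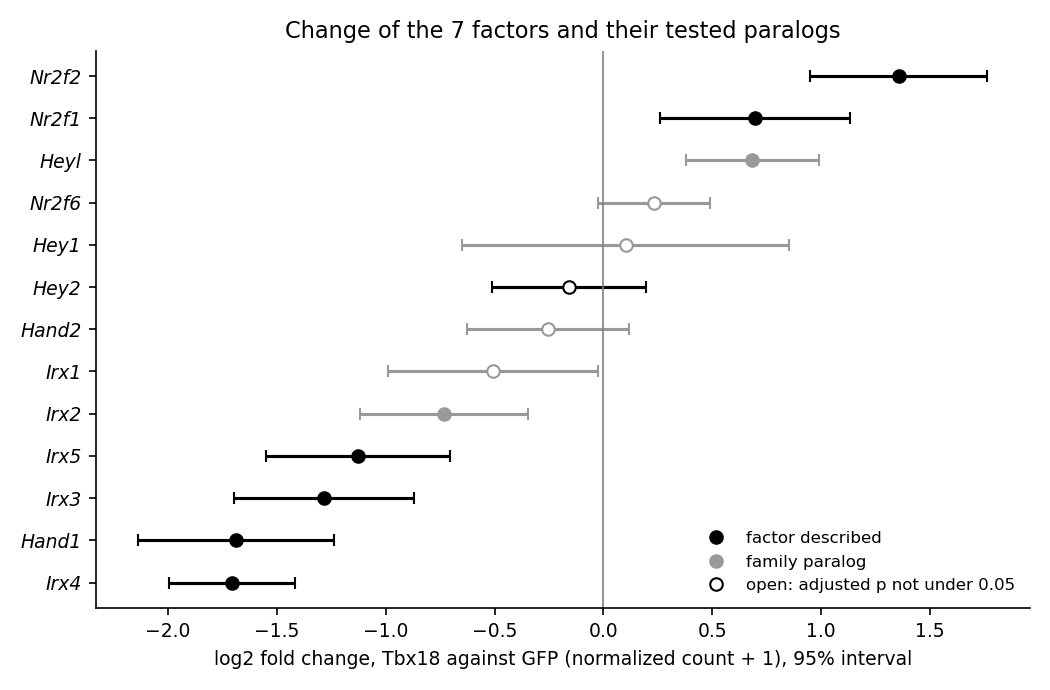
Log2 fold change of Tbx18 against GFP with its 95% interval for the 7 factors (black) and the 6 tested genes of the same families (grey); open circles did not pass the test. The Iroquois genes and Hand1 lie to the left of 0, Irx4 furthest at -1.70, and Nr2f2 furthest to the right at 1.35.

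Hand1 also fell, by a fold close to that of Irx4. The gene was at 165, 186 and 212 counts in GFP and at 64.4, 66.6 and 43.9 in Tbx18, with a wide gap between the groups. The means were 188 ± 23.4 and 58.3 ± 12.5, a 3.22-fold fall (log2 scale -1.69 with SE 0.20, limma adjusted p = 0.000157), rank 102 among the genes called lower. Hand2, the factor of the right ventricle and outflow tract in the embryo, was at 290.4, 330 and 403 counts in GFP and at 307, 322 and 229.97 in Tbx18. These values overlapped, and Hand2 was not called (-0.25, 95% interval -0.63 to 0.12, limma adjusted p = 0.240). Its difference changed sign with equal recovered reads, to 0.0102. The ratio of Hand1 to Irx4 was 0.186, 0.245 and 0.332 in GFP and 0.272, 0.286 and 0.196 in Tbx18. Its mean log2 value differed by 0.0181 between the groups, with SDs of 0.42 and 0.29 (exact permutation p = 1, adjusted 1).

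The promoters of genes that fell together are printed for Irx4 and Hand1, the pair with the steepest falls, and for Irx2, which holds a T-box motif. Each run is the 250 bases before the start of the gene, 5′ to 3′ on the gene's strand, from RefSeq on the GRCr8 assembly. These are chr1:31868090-31868339, minus strand, for Irx4, chr10:42509685-42509934, minus strand, for Hand1, and chr1:32494931-32495180, minus strand, for Irx2. Capitals mark a match to a searched motif.
Irx4: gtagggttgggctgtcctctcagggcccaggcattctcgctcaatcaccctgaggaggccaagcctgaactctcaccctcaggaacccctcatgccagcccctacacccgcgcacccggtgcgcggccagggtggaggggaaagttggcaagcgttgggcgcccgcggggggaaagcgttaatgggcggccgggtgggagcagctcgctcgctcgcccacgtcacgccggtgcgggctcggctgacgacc
Hand1: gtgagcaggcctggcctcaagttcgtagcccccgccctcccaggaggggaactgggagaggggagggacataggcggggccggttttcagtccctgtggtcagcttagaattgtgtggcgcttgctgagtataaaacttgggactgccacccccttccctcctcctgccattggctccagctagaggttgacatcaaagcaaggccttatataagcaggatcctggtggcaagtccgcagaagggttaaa
Irx2: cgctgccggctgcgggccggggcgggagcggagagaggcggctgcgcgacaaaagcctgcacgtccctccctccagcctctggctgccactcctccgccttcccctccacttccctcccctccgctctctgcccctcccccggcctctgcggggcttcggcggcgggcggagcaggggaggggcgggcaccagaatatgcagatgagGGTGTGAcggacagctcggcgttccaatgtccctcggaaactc

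Both strands of each window were searched for the T-box core GGTGTGA, its shorter form GGTGTG, which lies within it, the hormone receptor core site AGGTCA and the E-box CACGTG. Promoter entries were matched by symbol for 5 of the 7 factors, and those 5 windows (Nr2f1, Irx3, Irx4, Hey2 and Hand1) held none of these letters. The Irx3 window lies within the span that RefSeq lists for the gene. The Irx2 window held the T-box core 43 bases before the start, as shown in capitals, and the Irx1 window held the E-box 148 bases before it. Over 27457 promoter windows of the same length, 3.19% held the T-box core, 15.3% the shorter form, 13.7% the receptor site and 5.79% the E-box. A match describes letters in a window only, and a missing match says nothing of binding elsewhere.

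Hey2, the ventricular repressor downstream of Notch, did not follow Irx4. Hey2 was at 514, 385 and 336 counts in GFP and at 376, 329 and 387 in Tbx18. The groups overlapped, and the means were 412 ± 91.8 and 364 ± 31.0. The log2 fold change of -0.16 was not called (95% interval -0.51 to 0.20, limma adjusted p = 0.441), an interval that corresponds to 0.702 to 1.15 times the GFP level. Its sign turned with equal recovered reads (0.11) and without GFP replicate 1 (0.0137), the control library with the highest value. The ratio of Hey2 to Irx4 within a library was 0.581, 0.506 and 0.527 in GFP and 1.59, 1.41 and 1.73 in Tbx18. It was nearly constant in the controls and higher in every Tbx18 library (log2 difference 1.55, exact permutation p = 0.1, adjusted 0.16). Of the other Hey genes, Heyl, a Notch target of vascular smooth muscle, rose, with means of 215 ± 24.8 and 346 ± 36.4 (log2 scale 0.68, limma adjusted p = 0.00274). Hey1, the atrial member of the family, had only 11.1 to 16.1 counts in GFP and 11.3 to 15.6 in Tbx18, and was not called. Its log2 fold change of 0.10 was -0.67 after quantile normalization.

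Nr2f2 was also set against Irx4 and Hey2 within each library. The ratio of Nr2f2 to Irx4 was 0.195, 0.147 and 0.229 in GFP and 1.52, 1.34 and 1.92 in Tbx18, a log2 difference of 3.06 that does not depend on how the libraries were scaled. The ratio of Nr2f2 to Hey2 went from 0.335, 0.292 and 0.435 to 0.954, 0.947 and 1.11, a log2 difference of 1.51. For both ratios the groups did not overlap (exact permutation p = 0.1, adjusted 0.16). The direction of 7 of the 8 ratios held when each library was left out in turn, the exception being Hand1 to Irx4.

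Cultures of ventricular myocytes also hold stromal cells, and markers of the cell types moved along with the factors. The counts of called markers are to be read against the 22.5% of all genes tested that were called higher and the 23.5% called lower. In bulk RNA, fewer cells of a type and less RNA per cell cannot be told apart. Of the 9 cardiomyocyte markers tested, 8 fell and 0 rose, Actc1, cardiac alpha-actin, from 514685 ± 23641 to 173899 ± 6559, and Myh6 was not called. Their summed level was 1132060 to 1204805 counts in GFP and 546794 to 560107 in Tbx18, so the labelled cell type was present in both groups. Of 12 fibroblast markers 11 rose, with a sum of 258884 to 306311 in GFP and 550877 to 647430 in Tbx18. Col1a2 was not called, with only 2 to 30 reads in a library and means of 12.6 ± 8.96 and 18.0 ± 8.12 counts. Tcf21, a factor of fibroblast precursors, rose from 60.6 ± 17.4 to 234 ± 28.7.

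Vascular markers were less uniform. Of 16 endothelial markers 8 rose and 3 fell, with sums of 3213 to 5046 in GFP and 4717 to 5233 in Tbx18. Among them Nrp2, a receptor of venous and lymphatic vessels, rose 3.99-fold to 1042 ± 224, and Prox1, a lymphatic regulator that cardiomyocytes also express, fell from 350.4 ± 133 to 104.7 ± 29.3. With 1 library left out, or a minimum mean of 50 counts, as few as 5 endothelial markers were called higher. In GFP the mean log2 level of the endothelial markers was 7.62, 6.92 and 7.37, lowest in replicate 2, which was also the library with the lowest Nr2f2 and the highest Irx3. Among the controls replicate 2 was also lowest for smooth muscle and pericyte markers (11.16) and highest for leukocyte markers (7.77). A link between these levels was not tested. Of 10 smooth muscle and pericyte markers 5 rose and 2 fell, with sums of 83530 to 121019 in GFP and 123320 to 135129 in Tbx18. Pdgfrb, a pericyte receptor, rose 2.80-fold, and Abcc9, a channel subunit of pericytes and of cardiac muscle, fell 2.86-fold. Of 8 epicardial markers 7 rose, with sums of 823 to 1068 and 4064 to 4838. Krt8, a keratin, rose 11.9-fold, from 223 ± 57.2 to 2662 ± 353, and Tcf21 is counted among the fibroblast markers too. Wt1 was not called, at 108 ± 24.2 and 137 ± 22.6 counts (limma adjusted p = 0.193). Of 8 leukocyte markers 2 rose, a share near that of all genes, with sums of 1258 to 2287 and 1489 to 2053, among them Csf1r from 166 ± 45.0 to 278 ± 41.5, and 0 were called without Tbx18 replicate 3. No matched marker of these 6 lists was at 0 in every library.

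Each factor was also expressed per marker list, as its log2 value minus the mean log2 value of the list in the same library, a description chosen after the values were seen. Per cardiomyocyte marker, Irx4 was still lower in Tbx18 by a difference of -0.71, and Hand1 by -0.69, with no overlap. Irx3 and Irx5 differed by -0.29 and -0.14, and their groups overlapped. The mean of the cardiomyocyte markers themselves differed by -0.99, and single markers by -1.57 (Actc1) to -0.41 (Myh6). The differences per cardiomyocyte marker thus depend on which markers are averaged. On the same scale Hey2 was higher by 0.83, but it was lower on the other 3 scales, by -1.27 per fibroblast, -0.59 per endothelial and -0.40 per smooth muscle and pericyte marker, with no overlap on any of the 4. Per fibroblast marker, Nr2f2 differed by 0.24 and its groups overlapped, while Nr2f1 was lower by -0.42, the fibroblast mean itself being higher by 1.12. Nr2f2 was higher by 0.93 per endothelial marker and by 1.11 per smooth muscle and pericyte marker, with no overlap on either scale. Nr2f1 overlapped on both, at 0.27 and 0.45. The part of cell composition in the changes of the 7 factors was not tested.

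**Figure D3:**
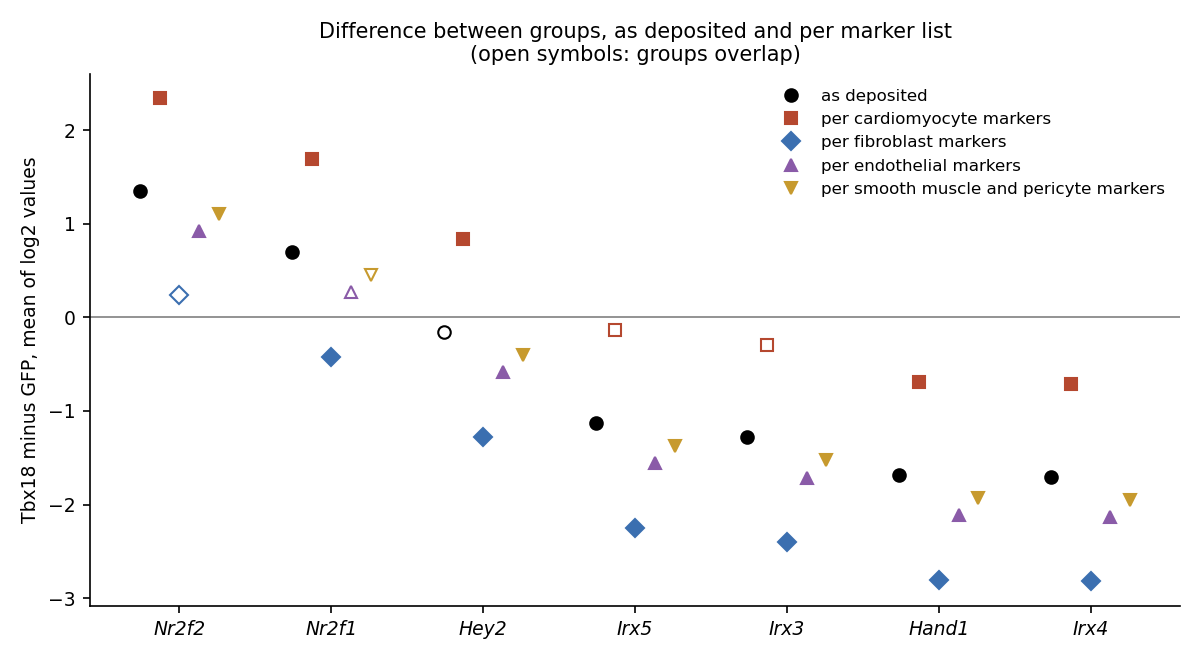
Difference between Tbx18 and GFP in mean log2 value for each factor, as deposited and after subtracting the mean log2 value of 4 marker lists in the same library; open symbols mark groups that overlap. Irx4 and Hand1 stay below 0 on all 5 scales, Irx3 and Irx5 come close to 0 per cardiomyocyte marker, and Nr2f2 comes close to 0 per fibroblast marker.

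Genes of the chambers that these factors help to specify did not divide simply into atrial up and ventricular down. Of 15 tested ventricular genes 12 fell and 0 rose, with a median log2 fold change of -1.04. The general cardiomyocyte markers, 8 of 9 lower, had a median of -0.96, and 23.5% of all genes tested were called lower, so the fall is not shown to be particular to ventricular genes. Nppb, brain natriuretic peptide, fell furthest, 6.70-fold from 69104 ± 12800 to 10309 ± 882. The 3 that were not called were Myl2, the ventricular regulatory light chain, with 27229 ± 7629 and 19814 ± 213 counts, Kcnd2 with 45.8 ± 24.1 and 61.2 ± 3.05, and Kcnd3 with 171 ± 60.0 and 114 ± 10.2. Kcnd2 and Kcnd3 encode channels of the transient outward current. For Myl2 and, narrowly, Kcnd3 the Tbx18 libraries lay below all GFP libraries (limma adjusted p = 0.0665 and 0.0790), as for 28.6% of all genes tested. Without GFP replicate 3, 1 ventricular gene was called higher. With DESeq2 on recovered reads or with the replicate block, 14 were called lower.

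Atrial genes were split, with 4 of 15 tested higher, 7 lower and a median log2 fold change of -0.22. Of all genes tested 22.5% were called higher and 23.5% lower, so the share of higher atrial genes is near that of all genes. Dkk3, a secreted protein of the Dickkopf family, rose 2.15-fold to 4382 ± 374, and Stard10, a lipid transfer protein, 2.11-fold to 163 ± 11.7. The other higher members were Gja5, the connexin of atria and conduction system, 1.60-fold from 59.5 ± 17.3, and Myl4, the atrial essential light chain, from 5204 ± 857 to 7083 ± 715. Sln, sarcolipin, fell furthest, 5.57-fold from 317 ± 9.28 to 56.9 ± 17.8. The count of higher members was 2 without Tbx18 replicate 1 or Tbx18 replicate 2. Nppa, a gene that Irx4 and Hey2 are known to repress, fell 3.28-fold.

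Only some genes known as Iroquois targets were looked up, after the values were seen. Gja1, the working-muscle connexin that Irx3 represses in the conduction system, fell 6.39-fold while Irx3 fell too. Gja5, the connexin named above among the atrial genes, was called higher, 1.60-fold. Kcnd2, the channel gene that Irx5 represses across the mouse ventricular wall, was not called (log2 fold change 0.52, limma adjusted p = 0.203), with overlapping groups. Kcnip2, a subunit of the same channel, had at most 5.32 counts in any library and was not tested.

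**Figure D4:**
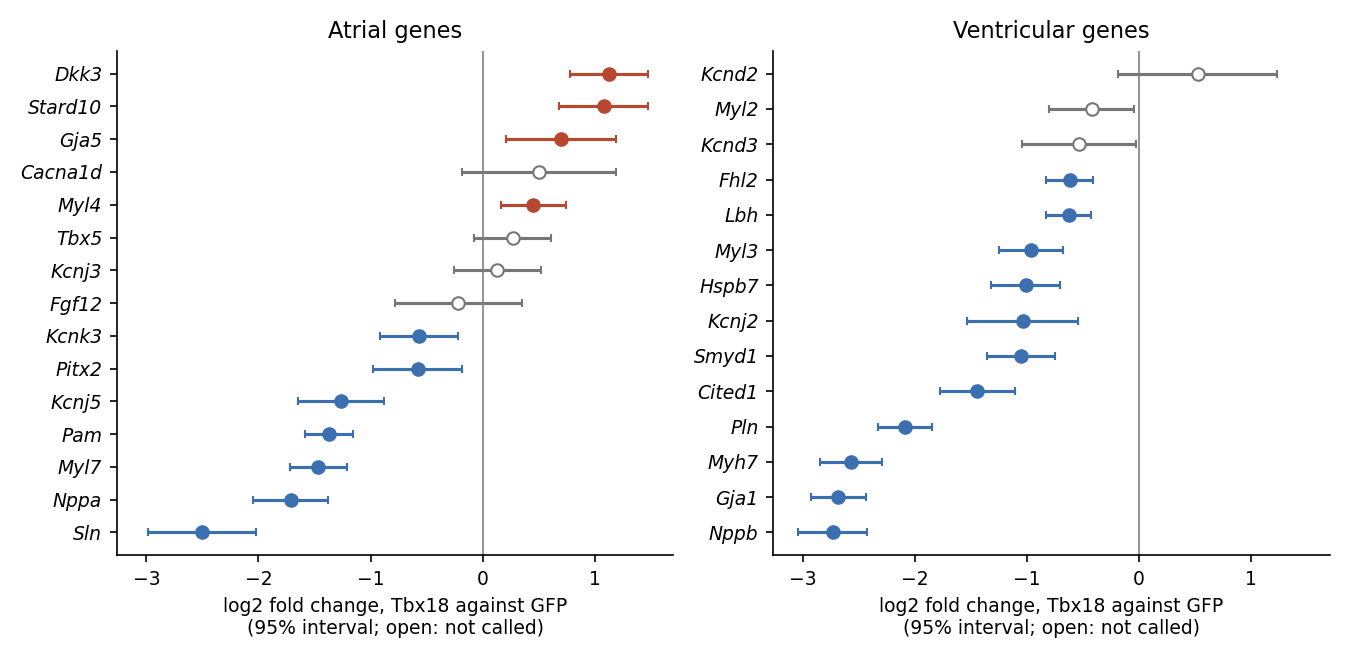
Log2 fold change of Tbx18 against GFP with its 95% interval for 15 atrial and 14 ventricular genes; filled symbols passed the test, red higher and blue lower. The ventricular panel shows 11 lower and 0 higher genes, and the atrial panel 7 lower and 4 higher.

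Pathways upstream and partners of the factors changed in part. Of 17 tested Notch pathway genes, the route that switches on Hey genes, 9 rose and 2 fell, with a median log2 fold change of 0.58. This list itself holds Heyl, among the 9, and Hey1, which was not called. Notch3, also among the 9, is counted in the smooth muscle and pericyte list too. Jag1, a Notch ligand, rose 3.50-fold from 184 ± 59.3 to 645 ± 82.9, and Notch4, an endothelial receptor, fell 1.81-fold, the other lower gene being Rbpj, the DNA-binding partner of Notch. Of the 10 dimer partners and inhibitors of Hand proteins, 5 rose and 0 fell, Twist2 among them from 32.1 ± 2.87 to 62.5 ± 7.95, and 1 was called lower without GFP replicate 1. Of 19 tested retinoid genes and COUP receptor partners 4 rose and 4 fell, with a median of -0.02. Aldh1a2, the enzyme that makes retinoic acid, an inducer of COUP factors and also counted in the epicardial list, rose 3.19-fold from 91.7 ± 16.0 to 293 ± 5.20. Bcl11a, a zinc finger protein that binds COUP receptors, fell 2.75-fold from 446 ± 57.9 to 162 ± 35.1. With equal recovered reads 8 genes of this list were called higher. Of all genes tested 22.5% were called higher and 23.5% lower.

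For each factor the genes with the most similar course were sought among the 8923 genes that averaged 100 counts or more. Likeness was the root mean square difference between the 6 log2 values of the genes, each set to 0 at its own GFP mean. Irx4 was nearest to Tfrc, with a difference of 0.07, and Tmeff1, Irx3 to Bmp2 and Rab20, and Irx5 to Tnnc1 and Gngt2. Hand1 was nearest to Pkp2 and Mtfp1, with differences of 0.14. Nr2f2 was nearest to Madd, with 0.08, and Cdc42bpg, Nr2f1 to Taok3 and Sh3rf1, and Hey2 to Pik3ip1 and Ccdc34. Tfrc, for one, went from 16306 ± 3483 to 5087 ± 101 counts, with the same wide controls and tight Tbx18 group as Irx4. This resemblance follows from the way Tfrc was selected. These are descriptions over 6 libraries that share their groups.

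The genes beside the factors on the chromosome were taken from RefSeq on GRCr8, used here only for the order of genes, in which 11005 of the tested genes were matched. Over the 5 nearest tested genes on each side of the 2 Iroquois clusters and of the other 4 factors, 7 of 60 were called higher and 15 lower. Together these are 36.7%, against 46% of all genes tested. Around the cluster of Irx3 and Irx5, 2 rose (Mmp2 and Rasd2) and 3 fell (Hmox1, Aktip and Tox3). Fto, whose introns hold enhancers of Irx3, was at 748 ± 56.6 and 811 ± 84.7 counts and was not called. Around the cluster of Irx4, 2 rose (Lpcat1 and Papd7) and 3 fell (Ndufs6, Slc12a7 and Ube2ql1). Beside Nr2f1, 0 of 10 rose and 3 fell, with a median log2 fold change of -0.30, and beside Hey2, 1 rose and 4 fell, with a median of -0.27. Beside Nr2f2, Rgma rose and Slco3a1 fell, and beside Hand1, Igtp rose and Mrpl22 fell. The named neighbours were chosen after their values were seen.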

How the data were processed

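The deposited signal is a table of DESeq2-normalized counts per gene and library, by its name and header, in which the authors divided read counts by 1 size factor per library. Tools in the submitters' processing notes, with no role stated, are DESeq2 1.10.1, HTSeq, STAR 2.4.0g1 and bcl2fastq 2.17.1.14. The build, the annotation and whether strand was used in counting: not given in the sources used here. Reads of antisense or overlapping genes therefore cannot be told apart. Per the labels' protocols, a stranded kit for mRNA was used on 100 ng of RNA, sequenced as 101 bp pairs. Every value was a whole multiple of its column's smallest step within 0.01 (100% of values), so reads were recovered.

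The test was limma 3.58.1 (R 4.3.3) with its trend option on log2(normalized count + 1), for genes with a mean of at least 10, and Benjamini-Hochberg adjustment over all 11230. On the recovered reads edgeR 4.0.16 called 2615 genes higher and 2591 lower, and DESeq2 1.42.0 called 2437 and 2659. Within-library ratios of 2 factors were compared by exact permutation over libraries. Other alternatives were scalings, pseudocounts of 0.5 and 5, filters, no trend, a replicate block and leaving out each library.

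The 7 factors and the gene lists were chosen with earlier results of these data known. Named genes are the factors, their family paralogs, the called genes with the highest and lowest log2 fold change of each other list (mean of at least 20), the 2 genes nearest in course to each factor, and genes said to be chosen after their values were seen. Members that a list's small counts turn on were also named after values were seen. They are Nppa, Myl2, Kcnd2, Kcnd3, Stard10, Gja5, Myl4, Rbpj, Notch3, Rarb, Myh6, Col1a2, Wt1, Tfrc's values and Fto. Of the ventricular list 1 tested gene is in its counts but is not reported here.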

Additional observations from a re-analysis of the deposited data

How the results depend on the processing

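Nr2f2, Irx3, Irx4, Irx5 and Hand1 kept their direction and their call under all 17 alternatives. With libraries scaled to equal recovered reads the genes' median log2 difference moved from 0.01 to 0.27, 4770 genes were called higher and 1351 lower, in place of 2525 and 2639, and 77.9% of calls were higher in place of 48.9%. With upper-quartile scaling the median was 0.10 and 61.3% of calls were higher. Relative to the median of each of these scalings Irx4 was at -1.71 and Hey2 at -0.16, as with the deposited scaling. Such a scaling shifts all genes by nearly the same amount, so this sameness follows from arithmetic and is no support for the changes. With 1 library left out, genes called higher ran from 1905 to 2870 and lower from 2056 to 2967. Nr2f1 was not called after quantile normalization (log2 fold change 0.41), where 1 factor was called higher, and ran from 0.56 to 0.86 with 1 library left out, where 1 to 2 factors were called higher and 4 lower. Hey2 was at 0.11 with equal recovered reads and from -0.29 to 0.0137 with 1 library left out, the latter without GFP replicate 1. Hey1 was at -0.67 after quantile normalization and Hand2 at 0.0102 with equal recovered reads. The difference in the Hand1 to Irx4 ratio ran from -0.19 to 0.23 with 1 library left out. The causes of these shifts were not tested, and without 1 library fewer samples enter each fit. Leukocyte markers called higher ran from 0 to 4 over the alternatives. Whether the replicate numbers pair the libraries is not settled. Deviations from the group means of same-numbered libraries correlated at -0.005, 0.151 and 0.016, and those of differently numbered libraries at -0.137 to 0.113. Deviations within a group are tied to each other by their shared mean, so these correlations cannot exclude pairing. With the replicate block 2527 genes were higher and 2628 lower, Nr2f1 had an adjusted p of 0.0203 and Irx4 of 7.81e-06, and 0 calls changed among the factors and their paralogs. Counts of 43.9 to 66.6 for Hand1 in Tbx18 limit the precision of its fold.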
